A study of Macaca mulatta with 51 samples.

Results

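A set of 10 transcription factors known for driving the formation of fat cells (PPARG, RXRA, RXRG, CEBPA, CEBPB, CEBPD, EBF1, EBF2, KLF15 and ZNF423) were looked up by gene symbol in a table of read counts from subcutaneous adipose tissue (AT) and gastrocnemius skeletal muscle (SM) of obese rhesus macaques. Of the 10 symbols, 8 had a row among the 16033 genes of the table, and all 8 passed the filter on low counts in both tissues. RXRA and CEBPA were not analysed here. The animals were 10 non-diabetic macaques, 5 males and 5 ovariectomized females of 11 to 22 years, which had eaten high-fat food for 2 years or more. All received native human FGF21, a metabolic hormone, by daily subcutaneous injection for 12 weeks at an escalating dose, with 1 animal held at a lower dose. Punch biopsies were taken pre-treatment, at the end of the 12 weeks (post-treatment) and 16 weeks after dosing stopped (washout). The authors reported that the animals lost weight during treatment and regained it during washout. No untreated animals were sampled, so that effects of time, of treatment and of weight change cannot be told apart.

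Counts were present for 27 AT libraries of 10 animals (pre-treatment n = 10, post-treatment n = 9, washout n = 8) and for 21 SM libraries of 8 animals (n = 6, 8 and 7). Total counts ranged from 15756491 to 23940980 per AT library and from 14455195 to 21740711 per SM library. Both tissues carried their defining markers: the adipokine ADIPOQ was present at 1166 to 4604 CPM (counts scaled to a common library size) in AT, and ACTA1, the actin of the myofibre, at 7100.1 to 42331 CPM in SM. Across all genes, the post-treatment SM libraries of animals 21189 and 21866 resembled the other SM libraries least (median correlations of 0.864 and 0.906). The post-treatment SM library of animal 21189 also had the lowest summed level of myofibre markers (56993 CPM, against a group median of 194786 CPM) and the highest of fibroblast markers (17446 CPM, against 2862 CPM).

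Adipogenesis proceeds in steps, each with its own factors. ZNF423, EBF1 and EBF2 mark cells committed to the adipocyte lineage, CEBPB and CEBPD act early after the signal to differentiate, and PPARG with CEBPA then carries the programme to the mature fat cell and maintains it. PPARG, a nuclear receptor and the target of the thiazolidinedione drugs, binds DNA together with a retinoid X receptor, of which RXRG is 1 form, and KLF15 is a zinc-finger factor that takes part late in the programme and controls glucose and amino acid metabolism in other tissues.

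In AT, PPARG was lower after 12 weeks of FGF21 and came back towards its starting level at washout, and the commitment factor ZNF423 was lower post-treatment by a smaller margin. CEBPD dropped between the post-treatment and washout time points, and RXRG was below its pre-treatment level at washout. CEBPB, EBF1, EBF2 and KLF15 did not pass the test in any AT comparison. A gene was called differentially expressed (DE) where the adjusted p of edgeR's quasi-likelihood test (Benjamini-Hochberg, all genes of the tissue) was under 0.05 and the size of the log2 fold change exceeded 0.26. Post-treatment compared to pre-treatment, 2 of the 8 factors were DE, both lower, where 15.5% of the 13367 genes tested in AT were DE (6.98% higher and 8.49% lower). With library size as the only scaling the majority turned, from 933 higher and 1135 lower to 1131 higher and 1012 lower (45.1% and 52.8% higher). Between the post-treatment and washout time points 2 of 8 were DE, 1 in each direction, where 35.4% of all genes were (17.6% higher, 17.8% lower). At washout compared to pre-treatment 1 of 8 was DE, lower, where 20.5% of all genes were (12.5% higher, 7.96% lower). The median log2 fold change of the 8 factors was -0.14, -0.06 and -0.21 in the 3 comparisons, beside 0.03, -0.00 and -0.02 for all genes.

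**Figure D1:**
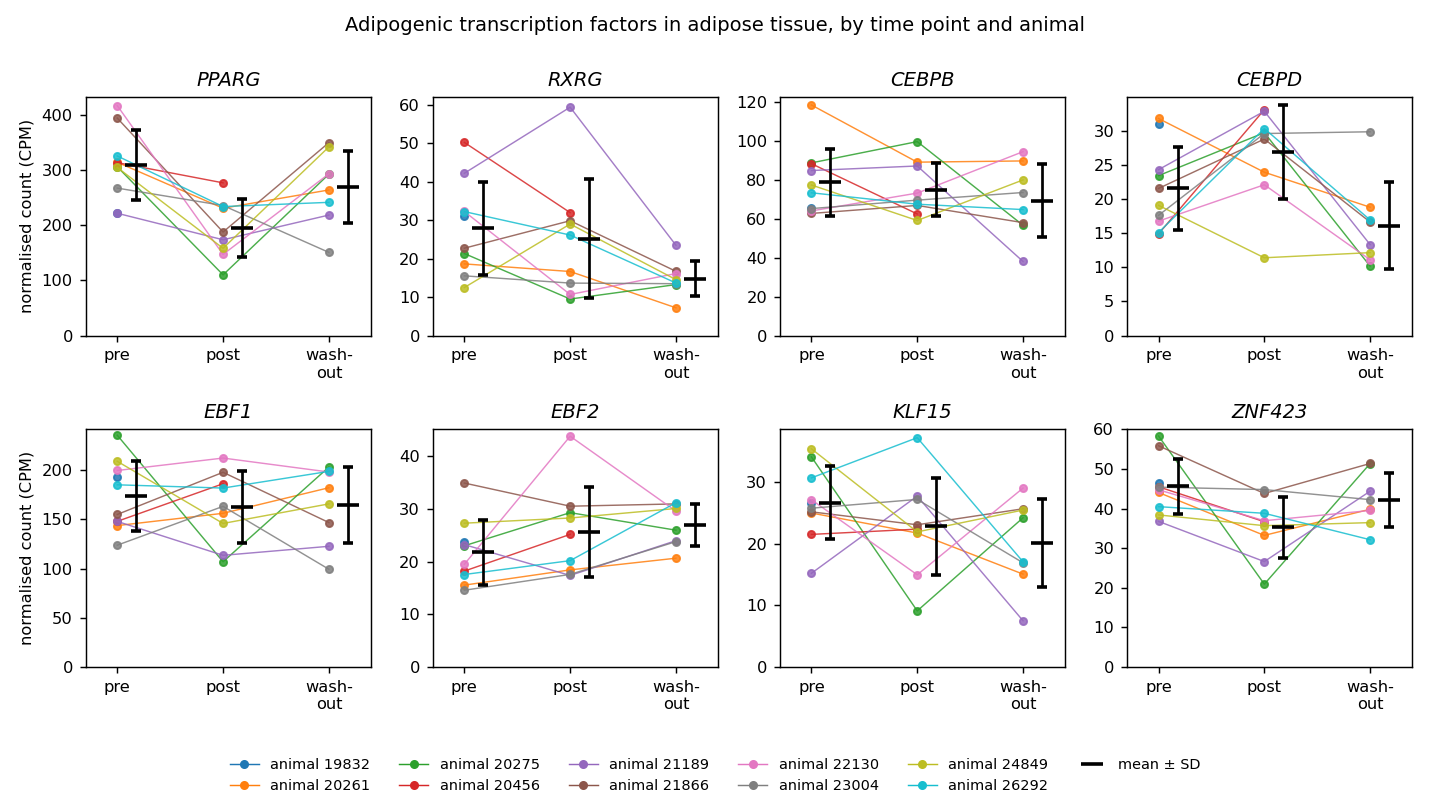
CPM (vertical axis) of the 8 factors in AT at the 3 time points (horizontal axis), with each animal as a coloured line of points and the mean ± SD of a time point in black. PPARG and ZNF423 go down from pre- to post-treatment in all 9 animals with both libraries, while the time points of every factor overlap.

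PPARG, the receptor at the centre of the programme, moved the same way in every animal post-treatment. Before dosing it ranged from 222 CPM (animal 21189) to 417 CPM (animal 22130), with a median of 309.8 CPM over 10 libraries. Post-treatment the lowest of 9 libraries was 110.1 CPM (animal 20275), the median 188 CPM and the highest 277 CPM (animal 20456), so that the groups overlapped although every animal had moved down. The washout libraries lay at 151 CPM (animal 23004) to 349.8 CPM (animal 21866), with a median of 278 CPM over 8 animals. The mean of PPARG was 309 ± 63.4 CPM (SD, n = 10) before and 195 ± 53.1 CPM (n = 9) after treatment. The fitted log2 fold change was -0.70 with an SE of 0.16 and an adjusted p of 0.0111, a level 38.6% lower than the pre-treatment one. It was lower in 9 of 9 animals. The sizes differed widely between animals, from -0.18 in animals 20456 and 23004 to -1.50 in animal 22130 and -1.47 in animal 20275 (log2 CPM). The decrease was called under each of 21 alternative settings, with a log2 fold change between -0.79 and -0.57.

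At washout PPARG averaged 269 ± 65.8 CPM (n = 8), higher than post-treatment by 0.49 on the log2 scale (SE 0.17, adjusted p = 0.0303), and 7 of 8 animals went up. The exception was animal 23004, whose PPARG was 0.64 lower at washout than post-treatment. This rise was less secure than the fall: it was called in 14 of 22 alternatives and was lost without animal 20275 (0.38, adjusted p = 0.0963), 21866 (0.43, 0.0866), 22130 (0.44, 0.0692) or 24849 (0.40, 0.101), as well as without the post-treatment library of animal 20275 alone (0.39, 0.0709). Compared to pre-treatment, the washout level was -0.21 on the log2 scale (SE 0.17, adjusted p = 0.401), with 7 of 8 animals below their own starting value. Ordered by level, pre-treatment and washout therefore did not differ beyond the test, and the post-treatment level lay below both.

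Library identifiers form 3 series of numbers (first, middle and last), treated as possible batches because the labels name none. For PPARG, the 6 animals with both libraries in the last series changed by -0.79 on average post-treatment (log2 CPM, 6 of 6 lower), the 2 animals of the middle series by -0.18 (2 of 2 lower) and the 1 animal with libraries in different series by -1.50. Over the washout period the 3 last-series animals changed by 0.47 (3 of 3 higher) and the 5 animals with mixed series by 0.58 (4 of 5 higher). With the number series as a covariate the PPARG rise at washout was 0.36 (adjusted p = 0.0509).

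RXRG, a partner of PPARG on DNA, was DE in a different comparison. Whether its changes differed from those of PPARG was not tested. Pre-treatment RXRG lay between 12.5 CPM (animal 24849) and 50.3 CPM (animal 20456), with a median of 26.9 CPM. Post-treatment the range was wider, from 9.50 CPM (animal 20275) to 59.5 CPM (animal 21189), around a median of 26.2 CPM. At washout all 8 libraries lay between 7.21 CPM (animal 20261) and 23.5 CPM (animal 21189), with a median of 14.1 CPM, below both earlier medians and overlapping both groups. RXRG averaged 27.9 ± 12.02 CPM (SD) pre-treatment, 25.2 ± 15.5 CPM post-treatment and 14.8 ± 4.54 CPM at washout. It fell by 0.75 on the log2 scale from pre-treatment to washout (SE 0.23, adjusted p = 0.0256), with 7 of 8 animals lower. The call held in 18 of 21 alternatives and was lost without animal 20261 (-0.69, adjusted p = 0.0732), without animal 26292 (-0.66, 0.0793) and without the pre-treatment library of animal 20275 (-0.69, 0.0578). Within the last series the 3 animals averaged -0.88 (3 of 3 lower), the 1 animal of the middle series changed by -0.996, and 4 animals with mixed series averaged -0.475 (3 of 4 lower). The change up to the post-treatment time point was -0.19 (SE 0.22, adjusted p = 0.575), with 3 animals higher and 6 lower, and that from post-treatment to washout -0.56 (SE 0.23, adjusted p = 0.0626), which 6 of 22 alternatives called.

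The early factors CEBPB and CEBPD belong to 1 family of leucine-zipper proteins. Whether they differed from each other in AT was not tested. CEBPD went from a median of 20.3 CPM pre-treatment (14.9 to 31.8 CPM) to 29.6 CPM post-treatment (11.4 to 33.1 CPM) and 15.0 CPM at washout (10.2 to 29.8 CPM). Its lowest post-treatment library, that of animal 24849, lay well below the next, at 22.1 CPM, and its highest washout library, that of animal 23004, well above the next, at 18.8 CPM. Over the washout period CEBPD fell by 0.76 on the log2 scale (SE 0.20, adjusted p = 0.00616), from 26.8 ± 6.86 to 16.1 ± 6.33 CPM. It was lower in 6 of 8 animals; animals 23004 and 24849 changed by 0.01 and 0.09. The call held under each of 22 alternatives, between -0.92 and -0.66. The 3 animals of the last series changed by -0.81 (3 of 3 lower) and the 5 with mixed series by -0.65 (3 of 5 lower). The post-treatment difference of CEBPD was 0.37 (SE 0.19, adjusted p = 0.168; higher in 7 of 9 animals) and did not pass the test. At washout compared to pre-treatment it was -0.39 (adjusted p = 0.173), and without animal 23004 it was -0.56 (adjusted p = 0.0481).

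For CEBPB no comparison passed the test. Its 27 AT libraries ran from 38.1 to 119 CPM, with medians of 75.5, 69.7 and 69.2 CPM at the 3 time points. The log2 fold changes were -0.09 post-treatment (adjusted p = 0.693), -0.12 from post-treatment to washout (0.541) and -0.21 at washout compared to pre-treatment (0.334), and animals were divided in each (5 higher and 4 lower, 4 and 4, 3 and 5).

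Among the commitment factors, ZNF423 lay between 36.8 CPM (animal 21189) and 58.4 CPM (animal 20275) pre-treatment, with a median of 45.1 CPM. Post-treatment its lowest value was 20.9 CPM, in the animal that had been highest (20275), its median 36.7 CPM and its highest value 44.8 CPM (animal 23004). At washout it lay between 32.1 and 51.4 CPM, with a median of 41.0 CPM. ZNF423 fell from 45.6 ± 6.90 to 35.3 ± 7.64 CPM post-treatment, which in the fit was -0.36 on the log2 scale (SE 0.12, adjusted p = 0.0489) with 9 of 9 animals lower. The change of animal 20275 was -1.48 and those of the other 8 lay between -0.46 and -0.02. This call stood at the edge of the threshold: it held in 6 of 21 alternatives and in 2 of the 10 that left out an animal (19832 and 23004); the highest adjusted p was 0.102 with an animal left out (22130) and 0.104 without the pre-treatment library of animal 20275. Without animal 20275 the log2 fold change was -0.24. The 6 last-series animals changed by -0.48 and the 2 middle-series animals by -0.17, all 8 of them lower, and the 1 animal with libraries in different series by -0.28. The later difference, washout compared to post-treatment, was 0.26 (SE 0.13, adjusted p = 0.115; 6 of 8 animals higher), and against pre-treatment -0.10 (adjusted p = 0.606).

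EBF1 and EBF2, related helix-loop-helix factors of which EBF2 is also known for the brown and beige fat programme, did not pass the test at any AT time point. EBF1 had medians of 170.1, 163 and 174 CPM and a whole range of 99.3 to 236 CPM; its 3 log2 fold changes were -0.07, -0.01 and -0.08, with SE of 0.13 to 0.14 and adjusted p of 0.743 to 0.974. EBF2 had medians of 21.2 CPM pre-treatment, 25.2 CPM post-treatment and 27.8 CPM at washout. Its washout libraries were the tightest group (20.6 to 31.2 CPM), inside the pre-treatment range of 14.6 to 34.9 CPM. The EBF2 difference was 0.24 post-treatment (SE 0.13, adjusted p = 0.192; 7 of 9 animals higher) and 0.35 at washout compared to pre-treatment (SE 0.13, adjusted p = 0.0708; 7 of 8 higher), the latter called in 4 of 21 alternatives.

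KLF15 had medians of 26.2, 22.4 and 20.6 CPM, within ranges that overlapped (15.2 to 35.4, 9.10 to 37.2 and 7.49 to 29.0 CPM). None of its differences passed: -0.19 post-treatment (SE 0.24, adjusted p = 0.604; 5 of 9 animals lower), -0.25 from post-treatment to washout (SE 0.25, 0.465; 4 of 8 lower) and -0.44 at washout compared to pre-treatment (SE 0.25, 0.221; 6 of 8 lower). Animals differed widely post-treatment, from -1.89 in animal 20275 to 0.86 in animal 21189 (log2 CPM).

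**Figure D2:**
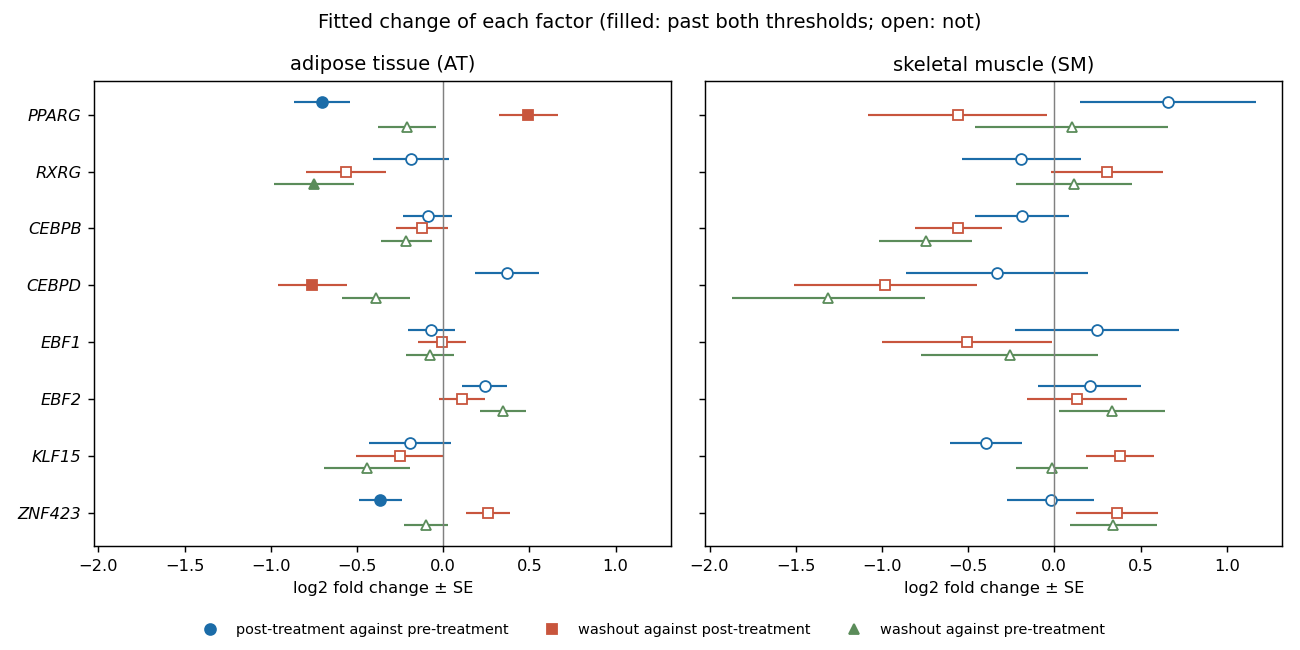
Fitted log2 fold change ± SE (horizontal axis) of each factor (vertical axis) in AT (left) and SM (right) for the 3 comparisons of time points; filled symbols passed both thresholds. In AT the filled symbols are PPARG and ZNF423 below 0 post-treatment, PPARG above and CEBPD below 0 from post-treatment to washout, and RXRG below 0 at washout; SM has no filled symbol.

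In bulk tissue, fewer cells of a type and less RNA per cell cannot be told apart, so markers of the cell types in AT were read beside the factors. Of all genes tested in AT, 6.98% were DE higher and 8.49% lower post-treatment. From post-treatment to washout these shares were 17.6% and 17.8%, and at washout compared to pre-treatment 12.5% and 7.96%. Whether the count of any marker list departed from these shares was not tested. The 6 mature adipocyte markers tested summed to 16806 to 34534 CPM pre-treatment (median 19407 CPM), to 9897 to 30695 CPM post-treatment (17297 CPM) and to 10858 to 31383 CPM at washout (16561 CPM). FABP4 weighed most in this sum, with a median of 11393 CPM over the AT libraries, against 2529 CPM for ADIPOQ and 82.4 CPM for AQP7. All 6 had fitted values below 0 post-treatment and 2 of them, LEP and PLIN1, were DE lower (median log2 fold change -0.28), of which only 1 was called when any of 7 single animals was left out. The 12 macrophage markers summed to 806 to 3000.3 CPM pre-treatment (median 1646 CPM), 1234 to 7581 CPM post-treatment (3159 CPM) and 563 to 2866 CPM at washout (869 CPM). Of these 12, all with fitted values above 0 post-treatment, 4 were DE higher (median 0.90), but 0 without animal 20275, 21189 or 22130 and 8 with DESeq2; at washout compared to post-treatment 12 of 12 were DE lower (median -1.68), and at washout compared to pre-treatment 6 of 12 (median -0.85). The 10 progenitor and fibroblast markers summed to medians of 19967, 29108 and 17856 CPM, with 2 DE higher post-treatment (COL1A1 and DPP4) and 3 DE lower from post-treatment to washout. Of 7 endothelial markers 3 (CDH5, ERG and TIE1) were DE higher in both washout comparisons (medians 0.45 compared to post-treatment and 0.36 compared to pre-treatment), with sums of 703 to 2346 CPM over all AT libraries. Of 4 erythroid markers 1 was DE lower post-treatment (median -1.39) and 3 were DE higher from post-treatment to washout (median 1.64; 0 called by voom), with sums of 327 to 11989 CPM. HBB alone ran from 324 to 11917 CPM.

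Some libraries at the ends of these ranges were also at the ends of the factors' ranges, and others were not: the post-treatment library of animal 21866 (lowest macrophage sum) and the washout library of animal 24849 (highest adipocyte sum) were neither lowest nor highest of their group for any of the 8 factors. The post-treatment library of animal 20275, with the highest macrophage sum, had the lowest PPARG, RXRG, EBF1, KLF15 and ZNF423 and the highest CEBPB of its group, and the washout library of animal 23004, with the highest macrophage sum at washout, had the lowest PPARG and EBF1 and the highest CEBPD. The post-treatment library of animal 22130 had the lowest adipocyte sum, the highest fibroblast sum and the highest EBF1 and EBF2. Without the post-treatment library of animal 20275, 1 factor (PPARG) was DE post-treatment; without the washout library of animal 23004, 2 were DE at washout compared to pre-treatment (RXRG and CEBPD). The part of cell composition in the changes of the factors was not tested.

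A list of fat-cell genes, many of them known to be switched on by PPARG, was read beside the factor. This does not hold for every gene of the list: LEP is not taken here as a gene that PPARG switches on. Of these 24 genes, called target genes below, 19 were in the table, and 8 of the 24 are also on the list of adipocyte markers. Post-treatment 9 of 19 were DE lower, none was DE higher with edgeR (voom called 1), and their median was -0.54 on the log2 scale, where 8.49% of all genes were DE lower. The largest decreases were in LEP, the adipokine leptin (-1.93, SE 0.34, adjusted p = 0.00263), and in GPAM, which starts triglyceride synthesis (-1.32, SE 0.30, adjusted p = 0.00973). Others were DGAT2 and AGPAT2 of triglyceride synthesis, G0S2, an inhibitor of fat breakdown, the lipoprotein lipase LPL, the lipid-droplet coat PLIN1 and ACSL1, which activates fatty acids, at -1.13 to -0.54. The count dropped to 4 without animal 20275, 21866 or 22130 and to 5 without animal 24849. The list was chosen with earlier results of these data known. The activity of PPARG was not measured, and its part and that of cell composition in these decreases cannot be told apart here.

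Over the washout period 6 of the 19 targets were DE higher and 3 lower (median 0.22), where 17.6% of all genes were DE higher and 17.8% lower. LEP (1.87, SE 0.36, adjusted p = 7.31e-04) and DGAT2 (1.11, SE 0.29, adjusted p = 0.00623) rose most. PCK1, an enzyme of glyceroneogenesis (-1.94, SE 0.45, adjusted p = 0.00312), and ANGPTL4, an inhibitor of lipoprotein lipase (-1.11, SE 0.32, adjusted p = 0.0105), fell most, opposite in direction to PPARG. The number higher was 3 without animal 20275, 21866, 22130 or 24849. At washout compared to pre-treatment 0 of 19 were DE with edgeR (4 at an unadjusted p under 0.05, 7 called by voom and 1 by DESeq2), where 20.5% of all genes were DE, although 18 of 19 had fitted values below 0 (median -0.35).

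Among other factors that promote adipogenesis, of which 19 were tested, 1 was DE higher and 1 lower post-treatment (median 0.08). Of all genes 15.5% were DE there, so that the count was not above the background. NR1H3, the oxysterol receptor LXR-alpha, rose by 1.19 (SE 0.20, adjusted p = 0.00178), and the cell-cycle factor E2F1 fell by 0.88 (SE 0.19, adjusted p = 0.00769). Over the washout period 1 was DE higher and 5 lower (median 0.01; 4 higher and 4 lower with library size as the only scaling), where 35.4% of all genes were DE, so that the count was near the background. There RXRB, another retinoid X receptor, rose by 0.47 (SE 0.10, adjusted p = 0.00154), NR1H3 fell by 1.02 (SE 0.20, adjusted p = 8.77e-04) and the glucocorticoid receptor NR3C1 fell by 0.56 (SE 0.11, adjusted p = 5.85e-04). The macrophage markers moved in the same directions as NR1H3 in both comparisons. The part of cell composition in the changes of NR1H3 was not tested. At washout compared to pre-treatment 2 were DE higher and 1 lower, where 20.5% of all genes were DE, again not above the background. They were RXRB at 0.48 and EBF3, another EBF factor, at 0.33, and NR3C1 at -0.43 (adjusted p = 0.00168, 0.0383 and 0.00563). The number higher was 1 without animal 20261, 20456, 21189, 21866, 22130, 23004 or 26292. RXRG and RXRB were thus DE in opposite directions at washout.

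Of 14 factors that restrain adipogenesis 1 was DE post-treatment, where 15.5% of all genes were, so that the count was not above the background. It was ETV5, an ETS factor, which rose by 0.46 (SE 0.13, adjusted p = 0.0225), and the list had no DE gene higher without animal 20261, 20275, 21189 or 22130. Over the washout period 3 rose and 2 fell, a count near the 35.4% of all genes that were DE, led by the orphan nuclear receptor NR2F2 (0.63, adjusted p = 0.0140) and the corepressor RUNX1T1 (0.53, 0.0199) upwards and by DLK1, the preadipocyte surface protein Pref-1 (-2.01, 0.0255), and ETV5 (-0.65, 0.00121) downwards. At washout compared to pre-treatment GATA2 (0.67, adjusted p = 0.0324) and NR2F2 (0.56, 0.0400) were higher, where 20.5% of all genes were DE; the count of 2 was 0 without animal 20261, 21866 or 22130 and 4 without animal 24849.

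Of 16 coregulators and related nuclear receptors, which PPARG works with, 0 were DE post-treatment with edgeR (5 at an unadjusted p under 0.05, 0 called by voom and 1 by DESeq2), where 15.5% of all genes were DE. Over the washout period 2 were higher and 4 lower, and at washout compared to pre-treatment 1 was higher and 4 lower, where 35.4% and 20.5% of all genes were DE. The coactivator NCOA2 fell by 1.18 (SE 0.14, adjusted p = 1.28e-05) and 1.16 (SE 0.14, adjusted p = 1.23e-05) in the 2 comparisons and the corepressor NCOR1 by 0.76 (adjusted p = 7.00e-04) and 0.79 (6.48e-04). The NCoR-complex subunit TBL1XR1 rose by 0.38 and 0.62 (adjusted p = 0.0131 and 6.05e-04), and PPARGC1A, the coactivator PGC-1alpha, rose by 1.02 from post-treatment to washout (SE 0.30, adjusted p = 0.0134) at a mean of 6.24 CPM. The 2 washout comparisons share their washout libraries.

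Animals in which PPARG fell most were compared with the changes of the other 7 factors over the 9 animals with pre- and post-treatment AT libraries. For KLF15, Pearson's r was 0.801 (exact two-sided permutation p = 0.00535, adjusted over the 7 factors 0.0375) and Spearman's rho 0.717 (exact p = 0.0369, adjusted 0.252). Animals 22130 and 20275, the 2 farthest from the median change of PPARG, had KLF15 changes of -0.86 and -1.89. Without them r was 0.545 (adjusted p = 0.518), so that the relation was not shown without those animals. Their removal also narrows the range of PPARG changes and the number of animals, and cannot settle what the relation rests on. Leaving out any 1 animal gave r between 0.728 and 0.845, with an adjusted p under 0.05 in 1 of 9 cases (without animal 21866), and the 6 animals of the last series gave r = 0.878 (adjusted p = 0.126). For ZNF423 r was 0.513 and rho 0.200, for EBF1 0.493 and 0.433, for RXRG 0.357 and 0.267, for CEBPD 0.319 and 0.583, for EBF2 -0.387 and -0.117, and for CEBPB -0.512 and -0.633. None of these 6 passed (permutation p of 0.136 to 0.401 for r and 0.0760 to 0.776 for rho, adjusted p of at least 0.313 and 0.252).

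**Figure D3:**
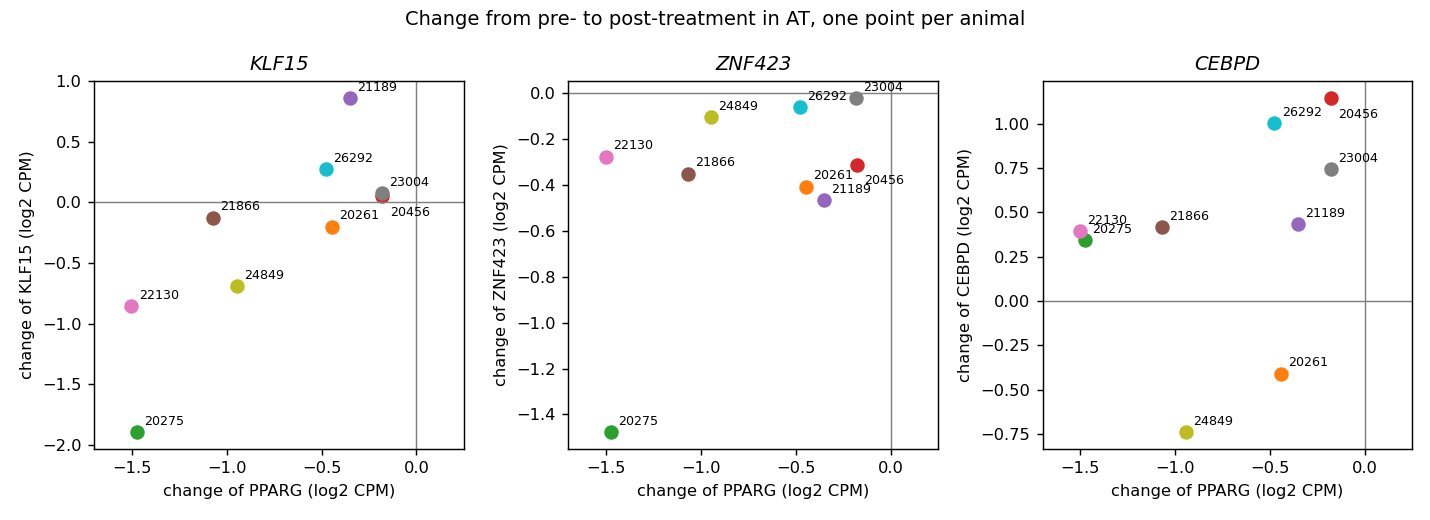
Change from pre- to post-treatment of KLF15, ZNF423 and CEBPD (vertical axes, log2 CPM) against that of PPARG (horizontal axis, log2 CPM) in AT, with 1 labelled point per animal. Animals 20275 and 22130 lie farthest left, at -1.47 and -1.50; the ZNF423 change of animal 20275 (-1.48) stands apart from the other 8.

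Over the 27 AT libraries, which share animals and time points, the levels of the factors were compared in pairs, and Pearson's r of log2 CPM is given as a description. The closest pairs were PPARG with ZNF423 (0.63), PPARG with KLF15 (0.54), EBF1 with KLF15 (0.47) and PPARG with EBF1 (0.44), and the most opposed PPARG with CEBPD (-0.36). Among 12131 other genes (AT mean of 1 CPM or more), those most like PPARG included MAOA (0.909) and GYS1 (0.890). For ZNF423 they were DAB2IP (0.810), TRIM29 (0.772) and MXRA7 (0.771).

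Before treatment the levels of most factors differed between the tissues, as did those of most genes. With both tissues scaled together, PPARG lay between 170.2 and 329 CPM in AT and between 2.47 and 21.6 CPM in SM, with no overlap, a fitted 45.5-fold higher level in AT. RXRG was the reverse, at 9.74 to 39.9 CPM in AT and 243 to 371 CPM in SM, again with no overlap and 13.3-fold higher in SM. EBF1 was 7.58-fold higher in AT (97.3 to 183 CPM against 8.97 to 46.4 CPM, no overlap), CEBPD 2.39-fold and EBF2 1.68-fold, both with overlapping groups. ZNF423 was 1.39-fold higher in SM (adjusted p = 0.0306) under this scaling. In all, 6 of the 8 factors were DE between the tissues, where 77.1% of 13662 genes were, so that the count was near the background. CEBPB (log2 difference of -0.43, AT minus SM, adjusted p = 0.0696) and KLF15 (-0.65, 0.0560) were not.

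Scaling mattered here: with library size alone the median difference of all genes between AT and SM moved by 0.74 on the log2 scale towards AT, from 0.16 to 0.90, and the share of DE genes higher in AT from 54.2% to 77.7%. Under that scaling ZNF423 (0.29), CEBPB (0.28) and KLF15 (0.09) were higher in AT and not called, whereas PPARG, RXRG, CEBPD, EBF1 and EBF2 kept their direction and their call. Without animal 21189, 22130 or 24849, ZNF423 was not called, and with the number series as a covariate neither EBF2 nor ZNF423 was.

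**Figure D4:**
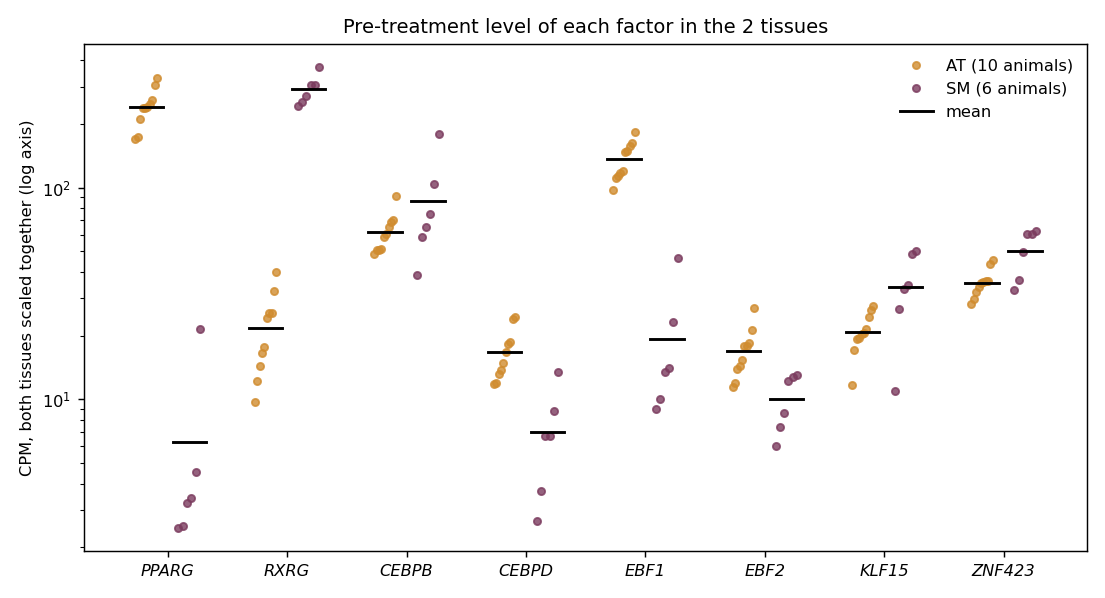
Pre-treatment CPM of each factor, scaled over both tissues (vertical log axis), in AT (10 animals) and SM (6 animals), with 1 point per library and the mean as a short line. PPARG and EBF1 do not overlap and are higher in AT, and RXRG does not overlap and is higher in SM.

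In SM 0 of the 8 factors were DE in any comparison with edgeR, where 0%, 0.19% and 0.0634% of 12617 genes were DE (410, 2181 and 1691 genes at an unadjusted p under 0.05). The factors at an unadjusted p under 0.05 numbered 0 post-treatment, 1 from post-treatment to washout and 2 at washout compared to pre-treatment; DESeq2 called 0 in each, and voom called CEBPD in the last. With the number series as a covariate 3 factors were DE from post-treatment to washout and 2 at washout compared to pre-treatment. The series were spread unevenly over the SM time points: the first held 3, 5 and 0 libraries, the middle 1, 0 and 1 and the last 2, 3 and 6. Only 2 animals had post-treatment and washout libraries in the same series (5 mixed), and 2 had pre-treatment and washout libraries in the same series (4 mixed). Series and time point are thus partly confounded in the SM washout differences. Fitted log2 fold changes of the 8 ranged from -0.40 to 0.66, from -0.98 to 0.38 and from -1.31 to 0.34.

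PPARG was low in SM, at 23 to 499 counts per library. Pre-treatment it lay between 1.80 and 15.7 CPM (median 2.53 CPM), post-treatment between 2.27 and 21.2 CPM (median 3.63 CPM) and at washout between 1.58 and 7.38 CPM (median 2.39 CPM). The pre- and post-treatment libraries of animal 24849 were far above the rest. They were also the 2 SM libraries with the most transcripts of the adipocyte markers ADIPOQ (128 and 123 CPM, against a median of 7.00 CPM over 21 libraries), FABP4 (481 and 826 CPM, median 69.5 CPM) and PLIN1 (104 and 133 CPM, median 9.65 CPM), and of LEP (51.2 and 92.1 CPM, median 3.49 CPM). The other 2 of the 6 markers tested did not follow: AQP7 stood at 10.6 and 12.4 CPM (median 12.4 CPM) and GPD1 at 999.7 and 639 CPM (median 1045 CPM) in these libraries. The summed level of the 6 adipocyte markers, including GPD1, which muscle also expresses, was 798 to 1775 CPM pre-treatment, 298 to 1825 CPM post-treatment and 711 to 1434 CPM at washout, highest in animal 24849 at the first and second time point. Animal 23004 had the largest post-treatment change of PPARG in SM (2.11, log2 CPM). Its ADIPOQ went from 1.77 to 31.4 CPM and its PLIN1 from 5.08 to 41.1 CPM, and its FABP4, LEP, AQP7 and GPD1 were higher too. In animal 21189 PPARG changed by 0.23, while ADIPOQ went from 7.00 to 1.02 CPM. The PLIN1, FABP4, AQP7 and GPD1 of this animal fell as well, and its LEP rose from 4.63 to 10.2 CPM. Its post-treatment library was the one with the lowest myofibre and the highest fibroblast sum of its group. Post-treatment, 5 of the 6 adipocyte markers had fitted values above 0 in SM and 1 below (median log2 fold change 0.34, 0 DE). The part of adipose tissue in these biopsies in the PPARG values of SM was not tested. Post-treatment compared to pre-treatment, PPARG was at 0.66 on the log2 scale (SE 0.51, unadjusted p = 0.215), with 6 of 6 animals higher, at 0.80 without animal 24849 and at 0.36 without animal 23004.

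RXRG, the factor with the largest excess in SM over AT, was at 181 to 268 CPM pre-treatment, 49.9 to 429 CPM post-treatment and 115 to 294 CPM at washout, with medians of 216, 165 and 264 CPM. The lowest of these values was the post-treatment library of animal 21189 and the highest that of animal 19832. CEBPB had medians of 51.4 CPM pre-treatment (28.0 to 139 CPM), 45.1 CPM post-treatment (27.01 to 88.5 CPM) and 34.7 CPM at washout (29.5 to 46.2 CPM). Its log2 difference at washout was -0.75 compared to pre-treatment (SE 0.27, unadjusted p = 0.0147, adjusted 0.290; 5 of 6 animals lower) and -0.56 compared to post-treatment (SE 0.25, unadjusted p = 0.0449, adjusted 0.277; 5 of 7 lower). CEBPD had medians of 4.90, 3.96 and 1.90 CPM at 15 to 232 counts, with -1.31 at washout compared to pre-treatment (SE 0.56, unadjusted p = 0.0335, adjusted 0.338; 5 of 6 lower) and -0.98 compared to post-treatment (SE 0.53, unadjusted p = 0.0853, adjusted 0.363; 6 of 7 lower).

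KLF15, which in muscle is known for amino acid breakdown, had a post-treatment median of 20.6 CPM between 24.7 CPM before and 23.2 CPM at washout. It was at -0.40 post-treatment (SE 0.21, unadjusted p = 0.0754; 5 of 6 animals lower) and at 0.38 from post-treatment to washout (SE 0.20, unadjusted p = 0.0724; 5 of 7 higher), with no adjusted p under 0.338. ZNF423 lay between 18.003 and 61.8 CPM, EBF1 between 4.22 and 45.3 CPM and EBF2 between 4.46 and 28.0 CPM over all SM libraries. Of the 67 target genes, other promoting and restraining factors and coregulators tested in SM, 0 were DE with edgeR in each comparison. At an unadjusted p under 0.05 there were 1, 14 and 13 of them; voom called 0, 0 and 12, and DESeq2 0, 4 and 3. The coregulators made up 10 of the 14 and 9 of the 13, with medians of 0.36 and 0.45.

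**Figure D5:**
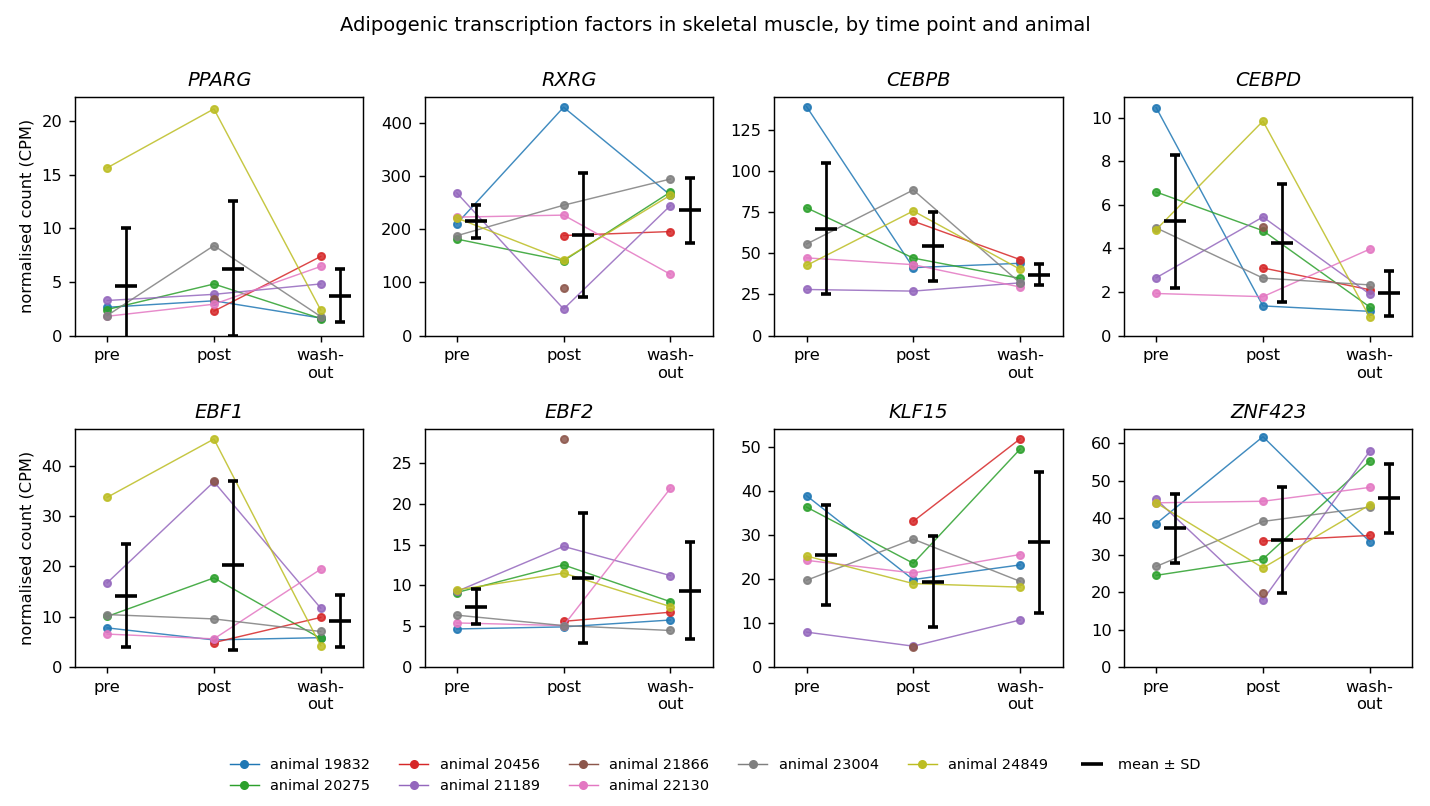
CPM (vertical axis) of the 8 factors in SM at the 3 time points (horizontal axis), with each of 8 animals as a coloured line of points and the mean ± SD of a time point in black, cut off at 0. Animal 24849 stands above the others in PPARG at 15.7 CPM pre-treatment and 21.2 CPM post-treatment, and all groups overlap.

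Whether a factor changed differently in the 2 tissues was tested with an interaction term in a joint fit of 12322 genes. For the post-treatment change 0 of 8 factors were called, where 0.0487% of all genes were, with 1 factor at an unadjusted p under 0.05: PPARG, lower in 9 of 9 animals in AT and higher in 6 of 6 in SM, differed by -1.42 (AT minus SM, SE 0.49, unadjusted p = 0.00659, adjusted 0.265). For the change from post-treatment to washout 0 of 8 were called, where 22.7% of all genes were, with PPARG at 1.05 (unadjusted p = 0.0446, adjusted 0.133) and RXRG at -0.87 (0.0429, 0.129). The PPARG difference was 1.45 (adjusted p = 0.0316) without animal 20456, and the RXRG difference -1.20 (0.0382) without animal 22130. For the change from pre-treatment to washout 0 of 8 were called, where 17.5% of all genes were, with RXRG at -0.93 (unadjusted p = 0.0363, adjusted 0.132). DESeq2 called 0 factors in each of the 3 and voom 0, 0 and 2 (RXRG and ZNF423). The decrease of PPARG in AT was thus not shown to differ from the change in SM.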

How the data were processed

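Reads of stranded mRNA libraries (HiSeq2000, paired ends) were aligned by the authors with STAR to the MacaM genome, libraries with few or poorly mapping reads were left out, and macaque genes were matched to human symbols; the counting tool is not given in the sources used here. The deposited values are raw read counts per gene, not normalized. After removal of 70 entries repeating a gene, 16033 of 16103 entries were kept for 48 libraries. The other 3 of 51 labelled samples, all SM, were not analysed here. Neither genome nor gene lengths were used, so that levels are not compared between genes.

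The filter asked for 0.5 CPM or more in 10% or more of a tissue's libraries and left 13367 genes in AT and 12617 in SM. edgeR 4.0.16 (R 4.3.3) was used for TMM normalization and robust quasi-likelihood tests (two-sided) with time point and animal in the model, 1 fit per tissue, and for the interaction and tissue contrasts over both tissues; Benjamini-Hochberg adjustment ran over all genes of a fit. CPM were TMM-normalized, and log2 CPM used a prior count of 2. Each SE was the size of the log2 fold change divided by the square root of the test's F statistic. The interval given for PPARG in SM spans 1.96 SE on each side, a normal approximation that is too narrow for few animals. Counts of single factors were lowest in SM, at 23 to 499 for PPARG and 15 to 232 for CEBPD, where counting error adds most. Libraries of 1 animal were paired as the labels give them: after removal of time point means, same-animal libraries correlated with a median r of 0.352 over 25 pairs in AT (-0.0354 over 217 other pairs) and 0.279 over 19 pairs in SM (-0.0464 over 127). All pairs of libraries within a group differed by more than sampling noise.

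The factors and gene lists were chosen with earlier results of these data known, the lists being written from general knowledge. Every factor with a row was named, and from each list the 2 DE genes that rose most and the 2 that fell most, where their AT mean reached 1 CPM; the other DE target genes and the cell type markers named were added after their values were seen. Some genes that these rules select are not reported here. Changes of PPARG were correlated with those of 7 factors, not the 9 planned, as RXRA and CEBPA were not analysed. Tests were exact permutations in SciPy 1.17.1. Alternatives were voomWithQualityWeights of limma 3.58.1 (voom in the text), DESeq2 1.42.0, library size as the only scaling, no filter, a minimum of 10 counts per library, a fit without animal, the identifier series as a covariate, a prior count of 0.5, only the 2 time points compared, and each animal or the pre-treatment AT library of animal 20275 left out; edgeR's earlier quasi-likelihood method and the removal of single libraries with extreme marker sums were added after the data were seen. The scripts were tested on simulated data.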

Additional observations from a re-analysis of the deposited data

Results flagged for a closer look

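A total of 10 values stood apart from their group of 6 to 10 libraries by Dixon's criterion, out of 48 groups of libraries examined. The criterion flags about 1 in 20 groups only where values are normally distributed and groups are independent. These CPM were not log-transformed and the groups share libraries, so that the count cannot be set against that share. In SM, animal 24849 had the highest PPARG pre-treatment (15.7 CPM, the next at 3.27 CPM) and post-treatment (21.2 CPM, the next at 8.40 CPM) and the highest EBF1 pre-treatment (33.7 CPM, the next at 16.7 CPM). In SM, EBF2 was highest in animal 21866 post-treatment (28.0 CPM, the next at 14.8 CPM) and in animal 22130 at washout (21.9 CPM, the next at 11.2 CPM). In AT, RXRG was highest post-treatment in animal 21189 (59.5 CPM, the next at 32.0 CPM), CEBPB pre-treatment in animal 20261 (118.7 CPM, the next at 88.9 CPM) and EBF2 post-treatment in animal 22130 (43.8 CPM, the next at 30.5 CPM). CEBPD in AT was lowest post-treatment in animal 24849 (11.4 CPM, the next at 22.1 CPM) and highest at washout in animal 23004 (29.8 CPM, the next at 18.8 CPM).

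Post-treatment, PPARG was lower in 9 of 9 animals in AT (DE) and higher in 6 of 6 in SM, where the change did not pass the test (0.66 on the log2 scale, SE 0.51, approximate 95% interval -0.34 to 1.66, edgeR's unadjusted p = 0.215). The difference between the tissues was -1.42. The test of this difference did not pass after adjustment (adjusted p = 0.265, edgeR's quasi-likelihood test).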

How the results depend on the processing

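The number of factors called moved with single settings. Post-treatment in AT it was 1 in place of 2 with library size as the only scaling, no filter, the number series as a covariate, only the 2 time points, edgeR's earlier method, or without the pre- or the post-treatment library of animal 20275, and 1 to 2 with any animal left out. From post-treatment to washout in AT it was 1 with the number series or only the 2 time points, 3 with DESeq2 (PPARG, CEBPD and RXRG), 2 with voom (CEBPD and RXRG, not PPARG), and 1 to 3 with an animal left out. At washout compared to pre-treatment in AT it was 2 with voom, library size, the number series or without the washout library of animal 23004, 3 with only the 2 time points, 0 without the pre-treatment library of animal 20275, and 0 to 2 with an animal left out. In SM it was 3 with the number series from post-treatment to washout, and 1 with voom and 2 with the number series at washout compared to pre-treatment. Of the interactions, that from post-treatment to washout had 1 with the number series and 0 to 1 with an animal left out, and that from pre-treatment to washout 2 with voom and 3 with the number series. The number of correlations with PPARG was 0 for changes of CPM, in the last series alone and without animals 20275 and 22130, and 0 to 1 with an animal left out. EBF1 changed sign around 0: post-treatment it was 0.0312 with voom and 0.0431 without the post-treatment library of animal 20275 (-0.14 to 0.0513 with an animal left out); from post-treatment to washout 0.00637 with DESeq2, 0.00525 with a minimum of 10 counts, 0.0134 without the pre-treatment library of animal 20275, 0.0669 with library size, 0.0523 with only the 2 time points and 0.0634 without the washout library of animal 23004 (-0.11 to 0.0947 with an animal left out); at washout compared to pre-treatment 0.0303 with library size and 0.00892 without the pre-treatment library of animal 20275. Library size as the only scaling moved ZNF423 to 0.00808 at washout compared to pre-treatment, and CEBPB, KLF15 and ZNF423 to 0.28, 0.0868 and 0.29 between the tissues; it moved the median of all genes by 0.11 (in SM by -0.13 from post-treatment to washout) and raised the share of DE genes that were higher from 61.1% to 79.7% at washout compared to pre-treatment, and from 49.7% to 63.0% compared to post-treatment in AT. The correlation of PPARG with RXRG was -0.72 and with EBF2 0.46 without animals 20275 and 22130, and that with EBF2 ran from -0.52 to 0.0796 with an animal left out. Without the pairing by animal (no replicate block) EBF1 was 0.0170 from post-treatment to washout, the AT calls between time points were for the same factors, and the count between the tissues was 8 in place of 6. The causes were not tested. Over all genes, DE counts ran from 805 (without animal 22130) to 2606 post-treatment, from 3629 to 4932 from post-treatment to washout and from 2133 to 3942 at washout compared to pre-treatment in AT, and from 0 to 2650 and 0 to 1355 in the washout comparisons of SM, the highest with the number series.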
